A study of Mus musculus with 8 samples.

Results

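The comparison set NIH-3T3 fibroblasts against Scid.adh T-lineage cells at baseline, with 2 RNA-seq libraries of each, out of 8 libraries in the series. The 2 normal NIH-3T3 libraries are labelled wild type and untreated, and the 2 Scid.adh libraries are labelled wild type with an empty vector. NIH-3T3 is an immortalised line from mouse embryo fibroblasts. Scid.adh is an adherent line grown from a thymic lymphoma of a mouse with the scid mutation, used as a model of DN3 thymocytes, the double-negative stage at which precursors commit to the T lineage. The other 4 libraries, 3T3 cells with TCF-1 induced and Scid.adh cells with a Tcf7 knockout, were used only to look again at genes chosen in the baseline libraries. The names in the headers of the normal 3T3 files hold the words cas9, empty, LRG21, pIND21 and P33 and a time of 72 hrs. The normal 3T3 cells may thus carry constructs that the labels leave out. Headers of the induced 3T3 files hold the same words and, in addition, dox. Each line is a single established line. No label tells separate cultures apart within a line, so a p-value measures library-to-library spread only, which may be technical.

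Separate gene tables were used to count the lines, with 53465 genes for 3T3 and 31053 for Scid.adh, of which 30731 Ensembl identifiers stand in both and are compared here. Genes in only one table held 2.60% and 2.57% of the counts of the 3T3 libraries and 0.0250% and 0.0257% of those of Scid.adh, and were left out. The shared genes took up 15752889 and 17073212 counts in the 3T3 libraries and 10389806 and 9844704 counts in the Scid.adh libraries. At least 1 count was found for 21309 and 21505 of the shared genes in 3T3 and for 17982 and 17942 in Scid.adh. Line, gene table, culture and sequencing depth all differ together, so that their shares in a difference cannot be told apart. Levels are given as CPM, counts per 1e+06 counts of the scaled library, in the order library 1 and library 2, or as RPKM, which also divides by exon length, where genes are set against each other. A log2 difference is Scid.adh minus 3T3, with its standard error (SE). Where a line had 0 counts in both libraries, the fold is a lower bound from 3 counts over those libraries, and where it had 1 to 3 counts, a ratio with its 95% counting interval is given. Reads carried no molecular identifiers, so bounds and intervals cover counting error only. In bulk RNA, fewer cells that make a transcript and less of it per cell cannot be told apart.

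The identity of a cell type rests on a set of transcription factors that hold its own genes open and those of other lineages shut. T cell precursors build the CD3 and pre-T cell receptor complex, respond to Notch ligands and interleukin 7 in the thymus, and rearrange receptor genes with the Rag recombinase. Fibroblasts secrete collagens, fibronectin and proteoglycans, grip that matrix through integrins and contractile actin fibres, and answer growth factors through receptor tyrosine kinases.

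The lines differed at most genes that could be tested. Of 14982 tested genes, 6124 (40.9%) were higher in Scid.adh and 7318 (48.8%) in 3T3 by edgeR's quasi-likelihood test at an adjusted p under 0.05. Against a difference of 2-fold, 3258 (21.7%) and 5407 (36.1%) still passed, 57.8% together. A gene was called on at 5 CPM or more in both libraries of a line, and silent under 0.5 CPM in both. By that rule 248 shared genes (0.807% of all) were on in Scid.adh and silent in 3T3, 1437 (4.68%) were on in 3T3 and silent in Scid.adh, and 7812 (25.4%) were on in both. Protein-coding genes made up 230 of the 248 and 1222 of the 1437. Antisense genes were 2 of the 248 and 152 of the 1437, and their summed level over all 2757 such genes was 8062 and 8040 CPM in 3T3 against 1948 and 1970 CPM in Scid.adh. What part the gene tables had in that gap was not tested.

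**Figure D1:**
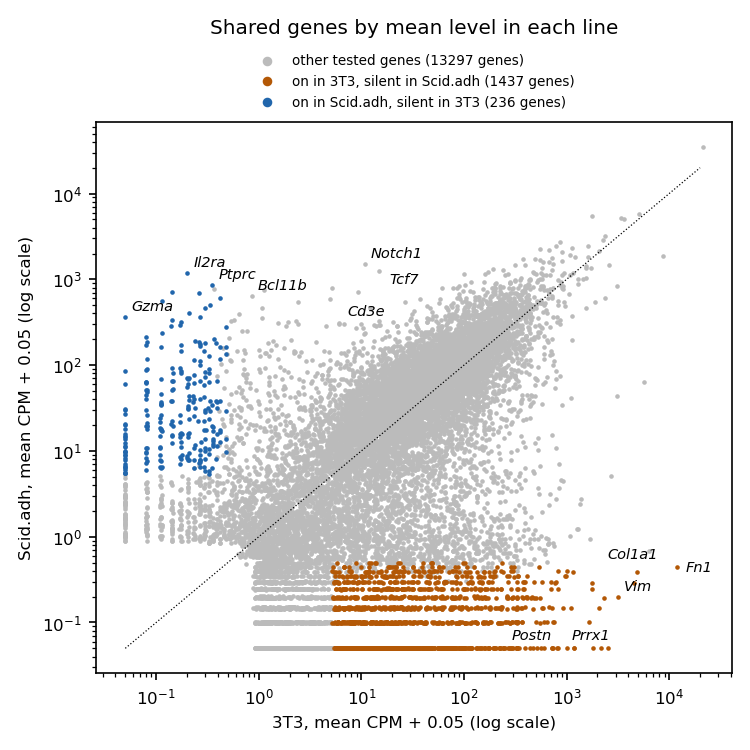
Mean level of each tested shared gene in 3T3 (horizontal) and in Scid.adh (vertical), both as CPM plus 0.05 on log axes, without mitochondrial genes. Orange points are the 1437 genes on in 3T3 and silent in Scid.adh, blue points the 236 nuclear genes with the opposite pattern, and the dotted line marks equal levels.

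Both lines carried the transcripts that their labels call for. Col1a1, the main chain of type I collagen, stood at 4866 and 4745 CPM in 3T3 and 0.380 and 0.302 CPM in Scid.adh (log2 difference -13.74, SE 0.06). Postn, the matrix protein periostin, had 809.8 and 815 CPM in 3T3 and 0 CPM in both Scid.adh libraries, at least 5535-fold higher in 3T3. Ptprc, the pan-leukocyte phosphatase CD45, showed the opposite order with 0.128 and 0.473 CPM in 3T3 and 859.8 and 854 CPM in Scid.adh (log2 difference 11.40, SE 0.08). Cd3e, a signalling chain of the T cell receptor, reached 302 and 293 CPM in Scid.adh and 6.29 and 5.73 CPM in 3T3 (log2 difference 5.63, SE 0.06), so that it was low but not silent in the fibroblasts. No library of one line overlapped those of the other at any of the 4 genes. Exons of Cd3e overlap those of another gene, and without a stated strand setting its reads cannot be told from those of its partner. Other genes with this limit are marked with the words exon overlap.

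**Figure D2:**
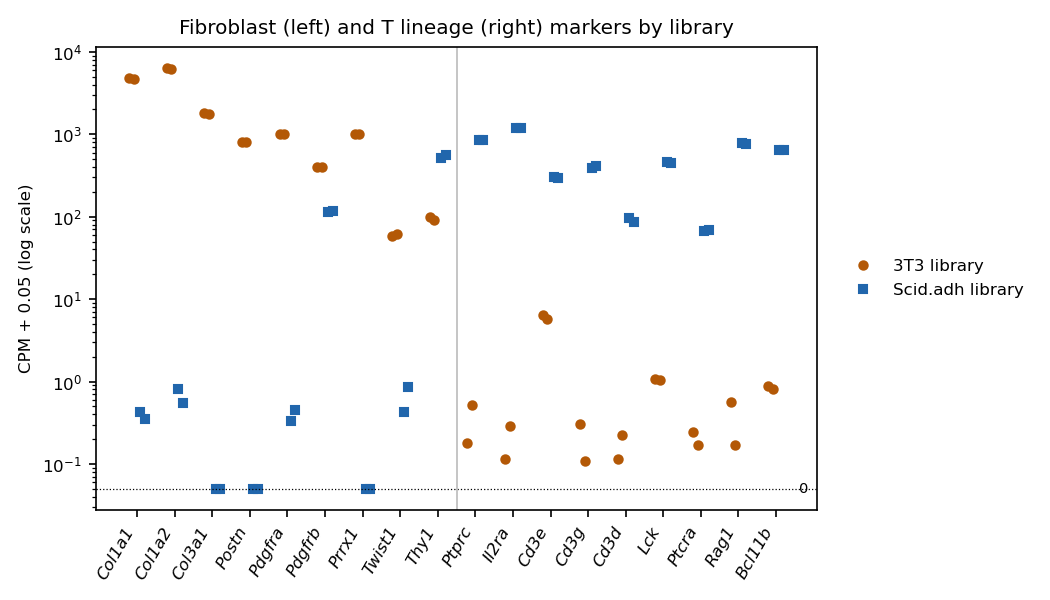
Level of 9 fibroblast markers (left of the grey line) and 9 T lineage markers (right) as CPM plus 0.05 on a log axis, with 1 point per library and the dotted line at 0 CPM. Thy1 is the fibroblast marker that stood higher in Scid.adh, and Pdgfrb is the one that stayed above 100 CPM in both lines.

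Genes of the DN3 stage were high in Scid.adh in some cases and near 0 in others. Il2ra, the interleukin 2 receptor alpha chain CD25 that marks DN2 and DN3 cells, stood at 1188 and 1193 CPM. The pre-T cell receptor alpha chain Ptcra stood at 67.7 and 69.3 CPM, and the Notch target Dtx1 at 544 and 539 CPM. Cd44, lost as cells enter DN3, was at 0.0951 and 0.101 CPM, against 138 and 138 CPM in 3T3. The coreceptor genes of later stages differed, with Cd4 at 0.0951 and 0.202 CPM, Cd8a at 0.0951 and 0 CPM and Cd8b1 at 17.5 and 23.8 CPM. Rag1, a subunit of the recombinase, was abundant at 795 and 767 CPM, while its partner Rag2 stood at 0.666 and 0.403 CPM. Exons of both overlap another gene. The nucleotide-adding enzyme Dntt was at 0.380 and 0.302 CPM. Among receptor constant genes, Trbc2 reached 23.8 and 18.9 CPM. Trbc1, a near-identical copy that may share its reads, was at 0.856 and 1.11 CPM. Trac, of the alpha chain rearranged after this stage, was at 0 and 0.101 CPM.

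Markers of other cell types were mostly low, and the larger sums rested on a few genes. The B cell marker Ms4a1 and the NK cell markers Klrb1c and Ncr1 had 0 counts in both lines. The endothelial cadherin Cdh5 had 0 counts in Scid.adh, and the adipocyte hormone Adipoq had at most 1 count in any library. In Scid.adh, the summed level was 6.09 and 8.37 CPM over 13 B lineage markers, 17.0 and 14.0 CPM over 18 myeloid markers and 32.8 and 34.7 CPM over 15 epithelial ones. The endothelial sum of 76.5 and 79.0 CPM over 11 markers was carried by Pecam1, the adhesion protein CD31, at 70.9 and 71.5 CPM. The epithelial sum was carried by Grhl2, an epithelial transcription factor whose exons overlap another gene, at 25.1 and 26.1 CPM. The NK and innate lymphoid sum of 491 and 496 CPM rested on Gzma, the cytotoxic protease granzyme A, at 359 and 369 CPM in Scid.adh and 0 counts in 3T3 (at least 3946-fold higher in Scid.adh), beside Id2, an inhibitor of E proteins, at 83.7 and 85.8 CPM. Tbx21, the T-bet factor, stood at 20.7 and 19.4 CPM there. In 3T3 that sum was larger, at 713 and 718 CPM, and came mainly from Il1rl1, the interleukin 33 receptor, at 549 and 554 CPM. The neural and glial sum of 73.9 and 74.2 CPM in 3T3 rested on Map2, a microtubule protein whose exons overlap another gene, at 61.4 and 62.5 CPM. The B lineage sum of 129 and 133 CPM in 3T3 was nearly all Ebf1, a factor shared by B cells and stromal cells, at 126 and 129.8 CPM. The adipocyte sum of 199.6 and 202 CPM in 3T3 was carried by Lpl, lipoprotein lipase, at 179 and 181 CPM.

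T lineage transcription factors were mostly higher in Scid.adh, but few were silent in the fibroblasts. Of 26 tested members, 21 were higher in Scid.adh and 2 in 3T3, beside 40.9% and 48.8% of all tested genes, with a median log2 difference of 1.90 against -0.22 over all. These shares of all tested genes, 40.9% higher in Scid.adh and 48.8% higher in 3T3, are the background for each list count of calls that follows. Against 2-fold the background is 21.7% and 36.1%. For members on in one line and silent in the other, it is 0.807% (on in Scid.adh) and 4.68% (on in 3T3) of all shared genes. For members on in both lines it is 25.4%. Of the 21933 shared protein-coding genes alone, 7748 were on in both lines. Of the same 21933, 230 were on in Scid.adh and silent in 3T3, and 1222 the reverse. On in Scid.adh and silent in 3T3 were 3 members, and 13 were on in both lines. Myb, a proliferation factor of blood precursors, was one of the silent ones, with 0.0641 and 0.118 CPM in 3T3 and 709.8 and 724 CPM in Scid.adh (ratio of Scid.adh to 3T3 7767, interval 2657 to 37668, exon overlap). Tox, an HMG-box factor of T cell selection, stood at 0.193 and 0 CPM in 3T3 and 18.1 and 20.4 CPM in Scid.adh (ratio of Scid.adh to 3T3 208, interval 70.6 to 1012, exon overlap). Gfi1, a zinc finger repressor, stood at 0.257 and 0.414 CPM in 3T3 and 40.1 and 37.0 CPM in Scid.adh (log2 difference 6.79, SE 0.20, exon overlap). All 3 were separated by far more than the spread within a line.

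Other factors of T cell commitment kept a low count in 3T3. Bcl11b, which seals T lineage commitment, stood at 0.834 and 0.768 CPM in 3T3 and 638 and 641 CPM in Scid.adh (log2 difference 9.63, SE 0.07). Satb1, a chromatin organiser of thymocytes, stood at 0.962 and 1.18 CPM in 3T3 and 752 and 754 CPM in Scid.adh (log2 difference 9.44, SE 0.06, exon overlap). Ikzf1, the founding Ikaros factor, stood at 0.706 and 0.473 CPM in 3T3 and 392 and 396 CPM in Scid.adh (log2 difference 9.37, SE 0.09). Both Scid.adh libraries stood far above both 3T3 libraries at all 3 genes. Gata3 stood at 1.54 and 1.42 CPM in 3T3 and 312 and 302 CPM in Scid.adh (log2 difference 7.69, SE 0.08, exon overlap). The HMG-box factor TCF-1, encoded by Tcf7, and its relative Lef1 both kept over 10 CPM in each 3T3 library. Tcf7 stood at 14.8 and 15.1 CPM in 3T3 and 1244 and 1251 CPM in Scid.adh (log2 difference 6.38, SE 0.04). If the normal 3T3 cells carry a TCF-1 construct, its reads cannot be told from those of their own Tcf7 gene. Lef1 stood at 13.2 and 10.7 CPM in 3T3 and 461 and 455 CPM in Scid.adh (log2 difference 5.26, SE 0.05, exon overlap).

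The partners that T lineage factors share with other cells were expressed in both lines. Foxo1, which drives Il7r in T cells, stood at 26.0 and 26.8 CPM in 3T3 and 28.1 and 31.2 CPM in Scid.adh (not past the test, log2 difference 0.17, SE 0.09, exon overlap). Without Scid.adh library 1, Foxo1 passed edgeR's quasi-likelihood test, with a log2 difference of 0.28 and an adjusted p of 0.00814. Nfatc3, a calcium-responsive factor, stood at 149.9 and 142 CPM in 3T3 and 243 and 246 CPM in Scid.adh (log2 difference 0.75, SE 0.04, exon overlap). Runx1, a core-binding factor of blood and of other tissues, stood at 153 and 153 CPM in 3T3 and 429 and 403 CPM in Scid.adh (log2 difference 1.44, SE 0.03, exon overlap). Ets1 stood at 128 and 135 CPM in 3T3 and 392 and 385 CPM in Scid.adh (log2 difference 1.56, SE 0.03). Id3, which blocks E proteins, was the exception among the list, on in 3T3 at 40.9 and 38.5 CPM and at 0.285 and 0.504 CPM in Scid.adh (log2 difference -6.63, SE 0.21). Sox4 was the other member higher in 3T3, with 369 and 362 CPM in 3T3 and 267 and 265 CPM in Scid.adh (log2 difference -0.46, SE 0.03, exon overlap).

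Regulators of earlier blood progenitors were seldom on, 12 of 16 in neither line and 0 in both. Being on in neither line was also the more common state of all 30731 shared genes, at 18797 of them, and 7812 (25.4%) were on in both. Of the 21933 protein-coding ones, 10565 were on in neither line. Of 10 tested regulators, 4 were higher in Scid.adh and 6 in 3T3, beside 40.9% and 48.8% of all tested genes. Cebpa, a myeloid factor with exon overlap, reached 8.18 and 8.06 CPM in Scid.adh against 1.54 and 1.30 CPM in 3T3. Meis1, a partner of Hox proteins, stood at 65.0 and 64.7 CPM in 3T3 and 0 and 0.504 CPM in Scid.adh (log2 difference -8.00, SE 0.22, exon overlap). Gata2 stood at 14.9 and 14.96 CPM in 3T3 and 0.951 and 0.706 CPM in Scid.adh (log2 difference -4.15, SE 0.24). Mef2c stood at 13.9 and 17.4 CPM in 3T3 and 2.85 and 2.82 CPM in Scid.adh (log2 difference -2.46, SE 0.19). Meis1, Gata2 and Mef2c were thus on in the fibroblasts, and Cebpa was on in Scid.adh.

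Most mesenchymal transcription factors were higher in 3T3, and many were silent in Scid.adh. Of 40 tested, 38 were higher in 3T3 and 2 in Scid.adh, with a median log2 difference of -6.01, and 33 passed against 2-fold. On in 3T3 and silent in Scid.adh were 12 of 50 members, beside 4.68% of all shared genes. Prrx1, a homeobox factor of limb and craniofacial mesenchyme, had 1005 and 1021 CPM in 3T3 and 0 CPM in both Scid.adh libraries (at least 6904-fold higher in 3T3). The basic helix-loop-helix factor Twist2 had 62.2 and 67.6 CPM in 3T3 and 0 CPM in both Scid.adh libraries (at least 443-fold higher in 3T3, exon overlap). The zinc finger repressor Snai2 stood at 44.5 and 46.8 CPM in 3T3 and 0 CPM in both Scid.adh libraries (at least 311-fold higher in 3T3).

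Skeletal and stromal factors followed the same order. Osr1, an early mesoderm factor, stood at 144 and 149 CPM in 3T3 and 0.0951 and 0.101 CPM in Scid.adh (ratio of 3T3 to Scid.adh 1499, interval 415 to 12384). Sox9, the cartilage factor, stood at 297 and 294 CPM in 3T3 and 0.190 and 0.605 CPM in Scid.adh (log2 difference -9.53, SE 0.11). The osteoblast factor Runx2 stood at 114 and 115 CPM in 3T3 and 0.285 and 0.202 CPM in Scid.adh (log2 difference -8.81, SE 0.16, exon overlap). Nfib, of the nuclear factor I family, stood at 728 and 743 CPM in 3T3 and 0.475 and 1.11 CPM in Scid.adh (log2 difference -9.86, SE 0.08). The repressors of epithelial genes Zeb1 and Zeb2 differed from each other. Zeb1 was nearly level, at 169 and 169.8 CPM in 3T3 and 149 and 156 CPM in Scid.adh (log2 difference -0.15, SE 0.04, exon overlap). Without Scid.adh library 1 its log2 difference was -0.08 and its call was lost, at an adjusted p of 0.0859 by edgeR's quasi-likelihood test. Zeb2 stood at 236 and 238 CPM in 3T3 and 0.761 and 1.01 CPM in Scid.adh (log2 difference -8.06, SE 0.10, exon overlap). Scx and Osr2 were the members higher in Scid.adh. The tendon factor Scx stood at 1.22 and 1.18 CPM in 3T3 and 4.18 and 4.74 CPM in Scid.adh (log2 difference 1.88, SE 0.28). Osr2 stood at 3.21 and 2.78 CPM in 3T3 and 6.85 and 7.06 CPM in Scid.adh (log2 difference 1.22, SE 0.20).

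Hox genes, which record position along the body axis, were read mainly in 3T3, with 18 of 25 tested higher there and 1 higher in Scid.adh, beside 48.8% and 40.9% of all tested genes. Hoxa7 and Hoxa5 were near 0 in Scid.adh. Hoxa7 stood at 60.4 and 60.7 CPM in 3T3 and 0.285 and 0.504 CPM in Scid.adh (log2 difference -7.24, SE 0.19, exon overlap). Hoxa5 stood at 26.0 and 27.9 CPM in 3T3 and 0 and 0.101 CPM in Scid.adh (ratio of 3T3 to Scid.adh 551, interval 98.7 to 21805). Hoxb4, a factor of blood progenitors, was the member higher in Scid.adh, at 0.449 and 0.591 CPM in 3T3 and 4.75 and 5.14 CPM in Scid.adh (log2 difference 3.22, SE 0.33).

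The CD3 chains sit in a cluster on chromosome 9, and Cd3d and Cd3g start 1355 bases apart on opposite strands. All 6 tested members of the receptor complex list were higher in Scid.adh, and 4 were silent in 3T3, beside 0.807% of all shared genes. Cd3g stood at 0.257 and 0.0591 CPM in 3T3 and 394 and 408 CPM in Scid.adh (log2 difference 11.26, SE 0.11). Cd3d stood at 0.0641 and 0.177 CPM in 3T3 and 96.1 and 87.0 CPM in Scid.adh (log2 difference 9.43, SE 0.19). Cd247, the zeta chain, kept a level of 10.3 and 10.6 CPM in 3T3 against 229.5 and 234 CPM in Scid.adh (log2 difference 4.47, SE 0.06, exon overlap). Per exon length, Cd3g (123 RPKM) stood above Ptcra (53.4 RPKM) in Scid.adh.

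The 200 bases before the start of 3 CD3 genes and of Il2ra are shown because these genes were on together in Scid.adh and low or silent in 3T3. They come from RefSeq (GRCm38.p6) and run 5′ to 3′ on the strand of the gene. Capitals mark matches to short motifs, searched on both strands, and no 2 of the matches shown overlap. For Runx factors the motif was TGTGGT, or the same letters with C at base 3. For TCF and LEF factors the motif was CTTTGAT. For E proteins, which bind E boxes, it was CAGGTG, or the same letters with C at base 4. For GATA factors it was AGATAA. For Ets factors it was AGGAAG, or alternatively the letters CCGGAA. For AP-1 it was TGACTCA, or its reverse complement. For TEAD factors it was GGAATG. The remaining motifs were the CCAAT box and the TATA box, searched as TATAAA. The windows lie at chr9:44981586-44981785 (plus strand) for Cd3d, chr9:44980432-44980631 (minus strand) for Cd3g, chr9:45009612-45009811 (minus strand) for Cd3e and chr2:11642592-11642791 (plus strand) for Il2ra.
Cd3d: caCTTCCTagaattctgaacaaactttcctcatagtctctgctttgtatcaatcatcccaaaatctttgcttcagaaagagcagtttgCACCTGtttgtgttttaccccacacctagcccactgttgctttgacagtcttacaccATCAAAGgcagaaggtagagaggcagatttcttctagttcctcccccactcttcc
Cd3g: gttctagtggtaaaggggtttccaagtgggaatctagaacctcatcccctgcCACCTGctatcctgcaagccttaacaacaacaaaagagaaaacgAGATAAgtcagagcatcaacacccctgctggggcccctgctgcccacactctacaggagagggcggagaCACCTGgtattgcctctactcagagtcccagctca
Cd3e: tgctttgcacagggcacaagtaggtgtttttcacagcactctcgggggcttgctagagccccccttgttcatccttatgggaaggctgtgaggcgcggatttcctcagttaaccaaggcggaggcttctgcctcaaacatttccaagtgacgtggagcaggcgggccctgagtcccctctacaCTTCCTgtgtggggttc
Il2ra: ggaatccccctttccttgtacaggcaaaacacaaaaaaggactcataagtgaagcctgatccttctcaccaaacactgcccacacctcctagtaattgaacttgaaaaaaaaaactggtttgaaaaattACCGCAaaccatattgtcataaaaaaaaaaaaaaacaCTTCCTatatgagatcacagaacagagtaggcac
Cd3d held 1 TCF and LEF match 55 bases before the start, letters that 2.45% of all 32851 RefSeq promoter windows of this length hold. E box matches stood 112 bases before the start of Cd3d and 148 and 35 bases before that of Cd3g, and 23.1% of windows hold one. Cd3g also held a GATA match 104 bases before its start (7.8% of windows). Il2ra held a Runx match 71 bases before its start (15% of windows). Ets matches stood in the windows of Cd3d, Cd3e and Il2ra, and 32.9% of windows hold one. A match describes the letters of the window and is not a binding site. No share is given for the on and silent classes, because windows were at hand for 143 of the 230 protein-coding genes on in Scid.adh and 817 of the 1222 on in 3T3, under 80% of each, which makes such a check void.

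Most genes of signalling downstream of the receptor were higher in Scid.adh. Of 32 tested, 26 were higher in Scid.adh and 4 in 3T3, with a median log2 difference of 6.34. Of 35 members, 16 were on in Scid.adh and silent in 3T3, beside 0.807% of all shared genes. On in both lines were 9, beside 25.4% of all shared genes and 7748 of the 21933 protein-coding ones. Lck, the kinase that starts receptor signalling, stood at 1.03 and 1.00 CPM in 3T3 and 468 and 448 CPM in Scid.adh (log2 difference 8.80, SE 0.08, exon overlap). The scaffold Lat stood at 0.257 and 0.177 CPM in 3T3 and 170.1 and 179.7 CPM in Scid.adh (log2 difference 9.60, SE 0.14, exon overlap). Vav1, an exchange factor that acts on the actin skeleton, stood at 0 and 0.0591 CPM in 3T3 and 219 and 212 CPM in Scid.adh (ratio of Scid.adh to 3T3 6996, interval 1255 to 276401).

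Regulators of the receptor signal did not all share this order. Themis, a regulator of thymocyte selection, stood at 0.0641 and 0.177 CPM in 3T3 and 291 and 296 CPM in Scid.adh (log2 difference 11.11, SE 0.12, exon overlap). Sla, an adaptor that dampens the receptor, stood at 0 CPM in both 3T3 libraries and 62.4 and 57.6 CPM in Scid.adh (at least 650.5-fold higher in Scid.adh). Its relative Sla2 ran the other way, at 22.8 and 21.6 CPM in 3T3 and 14.8 and 12.9 CPM in Scid.adh (log2 difference -0.68, SE 0.11, exon overlap). Among the members on in both lines, Fyn, a Src family kinase, stood at 92.8 and 91.2 CPM in 3T3 and 97.1 and 98.8 CPM in Scid.adh (not past the test, log2 difference 0.09, SE 0.05). Without Scid.adh library 1 or 2, Fyn passed edgeR's quasi-likelihood test, with log2 differences of 0.14 and 0.13 and adjusted p of 0.0134 and 0.0262. Plcg1 and Bcl10 were higher in 3T3. Plcg1, phospholipase C gamma 1, stood at 188 and 177 CPM in 3T3 and 110.0 and 109.7 CPM in Scid.adh (log2 difference -0.73, SE 0.04, exon overlap). Bcl10, an adaptor to NF-kappa B, stood at 38.8 and 37.8 CPM in 3T3 and 24.2 and 24.3 CPM in Scid.adh (log2 difference -0.66, SE 0.08).

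Lymphocyte surface proteins had 28 of 31 tested members higher in Scid.adh and 2 higher in 3T3, with 10 on in Scid.adh and silent in 3T3. Itga4, the integrin chain of VLA-4, stood at 0.0641 and 0.355 CPM in 3T3 and 701 and 698 CPM in Scid.adh (log2 difference 11.60, SE 0.09, exon overlap). The adhesion protein Cd2 stood at 0.0641 and 0.118 CPM in 3T3 and 68.2 and 62.9 CPM in Scid.adh (ratio of Scid.adh to 3T3 711, interval 243 to 3452). The adhesion receptor Cd226 stood at 0 CPM in both 3T3 libraries and 8.56 and 10.99 CPM in Scid.adh (at least 106-fold higher in Scid.adh). Each was under 0.5 CPM in 3T3.

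Other members showed no such switch. Thy1, used as a marker of both T cells and fibroblasts, was expressed in both lines and higher in Scid.adh, at 100.5 and 90.6 CPM in 3T3 and 523 and 556 CPM in Scid.adh (log2 difference 2.498, SE 0.04). Itgb7, an integrin chain of gut-homing lymphocytes, stood at 5.52 and 5.50 CPM in 3T3 and 16.3 and 17.2 CPM in Scid.adh (log2 difference 1.60, SE 0.14). Cd44 ran the other way and was the member on in 3T3 and silent in Scid.adh (ratio of 3T3 to Scid.adh 1408, interval 389.7 to 11633).

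Receptors for cytokines and chemokines were higher in Scid.adh for some genes and in 3T3 for more. Of 39 tested, 13 were higher in Scid.adh and 26 in 3T3, beside 40.9% and 48.8% of all tested genes. Il2ra stood at 0.0641 and 0.236 CPM in 3T3 and 1188 and 1193 CPM in Scid.adh (log2 difference 12.83, SE 0.08). Il7r, the interleukin 7 receptor alpha chain, stood at 0.0641 and 0 CPM in 3T3 and 119 and 115 CPM in Scid.adh (ratio of Scid.adh to 3T3 3815, interval 684 to 150764). Il2rg, the common gamma chain, stood at 0.321 and 0 CPM in 3T3 and 45.7 and 42.6 CPM in Scid.adh (log2 difference 8.08, SE 0.25, exon overlap). Il7r and Il2rg together form the interleukin 7 receptor. Cxcr4, the receptor for CXCL12, stood at 0.0641 and 0 CPM in 3T3 and 185 and 189 CPM in Scid.adh (ratio of Scid.adh to 3T3 6082, interval 1091 to 240280).

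Receptors for other ligands were higher in 3T3. Osmr, the oncostatin M receptor, had 274 and 284 CPM in 3T3 and 0 CPM in both Scid.adh libraries (at least 1902-fold higher in 3T3). Il1rl1, the interleukin 33 receptor ST2, stood at 549 and 554 CPM in 3T3 and 0.190 and 0.101 CPM in Scid.adh (ratio of 3T3 to Scid.adh 3755, interval 1285 to 18212). Il1r1 stood at 133 and 131 CPM in 3T3 and 0.0951 and 0.202 CPM in Scid.adh (ratio of 3T3 to Scid.adh 897, interval 307 to 4353). All 3 stood far lower in both Scid.adh libraries. Il13ra1, a chain of the interleukin 13 receptor, had 43.0 and 46.5 CPM in 3T3 and 0 CPM in both Scid.adh libraries (at least 305-fold higher in 3T3). Il6st, the shared chain gp130, was on in both lines at 853 and 853 CPM in 3T3 and 75.02 and 72.7 CPM in Scid.adh (log2 difference -3.53, SE 0.03).

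Of 10 tested genes of recombination and end joining, 7 were higher in Scid.adh and 3 in 3T3, and 8 of 12 listed genes were on in both lines, beside 40.9%, 48.8% and 25.4% of genes overall. Without Scid.adh library 2, 1 was higher in 3T3. Rag1 stood at 0.513 and 0.118 CPM in 3T3 (log2 difference 11.27, SE 0.09, exon overlap). Xrcc6, the Ku70 end-binding protein, stood at 30.3 and 31.5 CPM in 3T3 and 389 and 409 CPM in Scid.adh (log2 difference 3.69, SE 0.04, exon overlap). The ligase Lig4 stood at 10.6 and 10.1 CPM in 3T3 and 154 and 159 CPM in Scid.adh (log2 difference 3.92, SE 0.07). Prkdc, the kinase altered by the scid mutation, was transcribed in both lines, at 40.4 and 40.7 CPM in 3T3 and 69.9 and 72.9 CPM in Scid.adh (log2 difference 0.82, SE 0.07).

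Collagen transcripts were abundant in 3T3 and nearly absent from Scid.adh. The 44 collagen genes summed to 20717 and 20341 CPM in 3T3 against 97.8 and 92.9 CPM in Scid.adh, and 29 of 36 tested were higher in 3T3. Col1a2, the second chain of type I collagen, stood at 6371 and 6210 CPM in 3T3 and 0.761 and 0.504 CPM in Scid.adh (log2 difference -13.25, SE 0.05). Col3a1, the type III chain that forms mixed fibrils with type I, had 1801 and 1784 CPM in 3T3 and 0 CPM in both Scid.adh libraries (at least 12209-fold higher in 3T3, exon overlap). Its neighbour Col5a2 stood at 1185 and 1181 CPM in 3T3 and 0 CPM in both Scid.adh libraries (at least 8059-fold higher in 3T3). Per exon length, Col1a1 (732 RPKM) stood above Col3a1 (183 RPKM) in 3T3.

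Chains of basement membrane collagen were also on in 3T3. Col4a5 had 399 and 393 CPM in 3T3 and 0 CPM in both Scid.adh libraries (at least 2698-fold higher in 3T3). Col4a6, which starts 1309 bases from it, stood at 204 and 198 CPM in 3T3 and 0 CPM in both Scid.adh libraries (at least 1366-fold higher in 3T3). Col15a1, a multiplexin of basement membrane zones, was higher in Scid.adh, at 0.962 and 1.36 CPM in 3T3 and 22.6 and 21.7 CPM in Scid.adh (log2 difference 4.23, SE 0.19, exon overlap). The collagen genes higher in Scid.adh numbered 5, of which 2 passed against 2-fold. They numbered 3 without 3T3 library 1, 2 without 3T3 library 2 and 3 without Scid.adh library 2.

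The same windows of Col3a1, at chr1:45311338-45311537 (plus strand), and Postn, at chr3:54360907-54361106 (plus strand), are shown as examples of genes with 0 counts in Scid.adh, in the same format and with the same motifs in capitals.
Col3a1: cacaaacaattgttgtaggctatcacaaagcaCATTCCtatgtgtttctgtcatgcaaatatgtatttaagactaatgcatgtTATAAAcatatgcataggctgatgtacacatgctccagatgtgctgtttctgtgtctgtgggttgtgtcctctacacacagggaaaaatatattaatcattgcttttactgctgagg
Postn: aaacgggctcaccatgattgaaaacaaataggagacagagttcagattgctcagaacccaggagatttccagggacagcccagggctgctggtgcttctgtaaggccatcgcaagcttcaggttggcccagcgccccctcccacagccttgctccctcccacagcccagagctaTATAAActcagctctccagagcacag
Both held TATAAA, 117 bases before the start of Col3a1 and 26 bases before that of Postn, letters found in 9.96% of windows. Col3a1 also held a TEAD match 168 bases before its start (10.1% of windows). None of the 4 lymphoid windows held TATAAA or the TEAD letters.

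Of 60 other matrix proteins tested, 59 were higher in 3T3, with a median log2 difference of -8.16 (-7.81 with genes at 0 set to their bounds), and 26 of 69 were on in 3T3 and silent in Scid.adh. Fn1, fibronectin, stood at 12044 and 11828 CPM in 3T3 and 0.475 and 0.302 CPM in Scid.adh (log2 difference -14.86, SE 0.05, exon overlap). By limma-voom, Fn1 did not pass (log2 difference -14.75, adjusted p 0.63). Lox, which crosslinks collagen and elastin, stood at 4512 and 4547 CPM in 3T3 and 0.380 and 0.101 CPM in Scid.adh (log2 difference -14.12, SE 0.06, exon overlap). The small proteoglycan Bgn had 2181 and 2155 CPM in 3T3 and 0 CPM in both Scid.adh libraries (at least 14767-fold higher in 3T3). The collagen-binding protein Sparc stood at 1185 and 1184 CPM in 3T3 and 0 CPM in both Scid.adh libraries (at least 8068-fold higher in 3T3).

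Glycoproteins that modulate adhesion also showed wide gaps. Thbs2, thrombospondin 2, stood at 2350 and 2305 CPM in 3T3 and 0.190 and 0.101 CPM in Scid.adh (ratio of 3T3 to Scid.adh 15850, interval 5423 to 76858). Nid1, a linker of basement membranes, stood at 2057 and 2042 CPM in 3T3 and 0.0951 and 0.101 CPM in Scid.adh (ratio of 3T3 to Scid.adh 20940, interval 5797 to 172911, exon overlap). Dcn, the collagen-binding proteoglycan decorin, had 435 and 441 CPM in 3T3 and 0 CPM in both Scid.adh libraries (at least 2986-fold higher in 3T3). Fbln1 was the member higher in Scid.adh, at 5.77 and 5.32 CPM in 3T3 and 9.03 and 10.4 CPM in Scid.adh (log2 difference 0.81, SE 0.17).

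Enzymes that shape the matrix were higher in 3T3 in 20 of 20 tested processing genes and 23 of 23 tested proteases and inhibitors. Serpinh1, the collagen chaperone, stood at 479.7 and 469 CPM in 3T3 and 0.190 and 0 CPM in Scid.adh (ratio of 3T3 to Scid.adh 4845, interval 1341 to 40012). P4ha3, a prolyl hydroxylase subunit, stood at 43.6 and 43.0 CPM in 3T3 and 0 and 0.202 CPM in Scid.adh (ratio of 3T3 to Scid.adh 442, interval 122 to 3653). Secreted proteases and their inhibitors were also read mainly in 3T3. The gelatinase Mmp2 stood at 1100 and 1089 CPM in 3T3 and 0.0951 and 0.101 CPM in Scid.adh (ratio of 3T3 to Scid.adh 11177, interval 3094 to 92300). Timp3, an inhibitor held in the matrix, stood at 365 and 364 CPM in 3T3 and 0 and 0.101 CPM in Scid.adh (ratio of 3T3 to Scid.adh 7445, interval 1336 to 294068, exon overlap). Its relative Timp2 was on in both lines at 826 and 834 CPM in 3T3 and 476 and 531 CPM in Scid.adh (log2 difference -0.72, SE 0.03).

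Integrin chains differed in both directions, at shares near those of all tested genes (40.9% and 48.8%), with 11 of 24 tested higher in Scid.adh and 12 in 3T3. Itgal and Itgb2, the chains of the leukocyte integrin LFA-1, were higher in Scid.adh. Itgal stood at 0.641 and 0.709 CPM in 3T3 and 86.4 and 94.2 CPM in Scid.adh (log2 difference 7.04, SE 0.14). Itgb2 stood at 9.94 and 9.10 CPM in 3T3 and 144 and 144 CPM in Scid.adh (log2 difference 3.92, SE 0.07). Itga4 was also higher in Scid.adh, and other chains were higher in 3T3. Itga5, a fibronectin receptor chain, stood at 193 and 190.3 CPM in 3T3 and 0.571 and 1.01 CPM in Scid.adh (log2 difference -7.92, SE 0.11). Itga11, a collagen receptor chain, stood at 126 and 125 CPM in 3T3 and 0.666 and 0.706 CPM in Scid.adh (log2 difference -7.50, SE 0.13). Itgb1, the partner of many alpha chains, was on in both lines at 808 and 811 CPM in 3T3 and 310.1 and 318 CPM in Scid.adh (log2 difference -1.37, SE 0.03). Itgb6, usually a chain of epithelial cells, was on in Scid.adh at 34.0 and 33.4 CPM against 0.193 and 0.118 CPM in 3T3 (log2 difference 7.69, SE 0.24).

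Surface proteins of fibroblasts were higher in 3T3 in 41 of 46 tested, with a median log2 difference of -9.14 (-8.64 with bounds), and 22 of 50 were on there and silent in Scid.adh. Cav1, the coat protein of caveolae, had 720.4 and 746 CPM in 3T3 and 0 CPM in both Scid.adh libraries (at least 5000-fold higher in 3T3). The heparan sulfate proteoglycan Sdc4 had 328 and 324 CPM in 3T3 and 0 CPM in both Scid.adh libraries (at least 2222-fold higher in 3T3). Cd34, a sialomucin of stromal and progenitor cells, stood at 192 and 192 CPM in 3T3 and 0 CPM in both Scid.adh libraries (at least 1305-fold higher in 3T3, exon overlap). None of these 3 genes had a count in Scid.adh. The endocytic receptor Lrp1 stood at 2711 and 2665 CPM in 3T3 and 3.80 and 6.35 CPM in Scid.adh (log2 difference -9.06, SE 0.05). Nrp1, a coreceptor of vascular growth factor and semaphorins, was on in both lines and higher in Scid.adh, at 102 and 104.7 CPM in 3T3 and 137 and 138 CPM in Scid.adh (log2 difference 0.41, SE 0.04, exon overlap).

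Receptor tyrosine kinases were higher in 3T3 in 28 of 37 tested and in Scid.adh in 7. Pdgfra stood at 1004 and 1001 CPM in 3T3 and 0.285 and 0.403 CPM in Scid.adh (log2 difference -11.48, SE 0.08, exon overlap). Pdgfrb, the other platelet-derived growth factor receptor, kept a level of 113 and 118 CPM in Scid.adh against 404 and 401 CPM in 3T3 (log2 difference -1.80, SE 0.03). Fgfr1, a fibroblast growth factor receptor, stood at 1162 and 1147 CPM in 3T3 and 0.380 and 0.302 CPM in Scid.adh (log2 difference -11.68, SE 0.08, exon overlap). Pdgfra and Fgfr1 were thus near 0 in both Scid.adh libraries, and Pdgfrb was not. The collagen receptor Ddr2 stood at 575 and 573 CPM in 3T3 and 0.0951 and 0.101 CPM in Scid.adh (ratio of 3T3 to Scid.adh 5861, interval 1622 to 48400, exon overlap). Met, the receptor of hepatocyte growth factor, stood at 219 and 230.0 CPM in 3T3 and 0.0951 and 0 CPM in Scid.adh (ratio of 3T3 to Scid.adh 4594, interval 824 to 181467). Ephb6, a kinase-dead ephrin receptor of thymocytes, was higher in Scid.adh, at 2.25 and 1.71 CPM in 3T3 and 22.9 and 20.97 CPM in Scid.adh (log2 difference 3.47, SE 0.17).

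Secreted growth factors and cytokines came mostly from the fibroblasts, with 39 of 46 tested higher in 3T3 and 5 in Scid.adh. Ptn, pleiotrophin, had 723 and 729.5 CPM in 3T3 and 0 CPM in both Scid.adh libraries (at least 4947-fold higher in 3T3). Ccl2, a monocyte attractant, had 197 and 195 CPM in 3T3 and 0 CPM in both Scid.adh libraries (at least 1335-fold higher in 3T3). Cxcl1, a neutrophil attractant, stood at 99.95 and 106 CPM in 3T3 and 0 CPM in both Scid.adh libraries (at least 701-fold higher in 3T3). Ptn and both chemokines had no count in Scid.adh. Cxcl12, the ligand of Cxcr4, stood at 471 and 460.2 CPM in 3T3 and 5.33 and 6.25 CPM in Scid.adh (log2 difference -6.33, SE 0.06), so that ligand and receptor were high in opposite lines. Angpt1, a ligand of vascular cells, was higher in Scid.adh, at 17.5 and 14.7 CPM in 3T3 and 84.5 and 79.5 CPM in Scid.adh (log2 difference 2.35, SE 0.08, exon overlap).

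Contractile and focal adhesion genes were on in both lines in 17 of 39 members, beside 25.4% of all shared genes. Of 38 tested, 35 were higher in 3T3. Vim, the intermediate filament vimentin, stood at 3192 and 3144 CPM in 3T3 and 0.0951 and 0.202 CPM in Scid.adh (ratio of 3T3 to Scid.adh 21577, interval 7383 to 104630). Cald1, caldesmon, stood at 1802 and 1748 CPM in 3T3 and 0.285 and 0.101 CPM in Scid.adh (log2 difference -13.08, SE 0.08). Tpm2, a tropomyosin of stress fibres, stood at 200.3 and 196 CPM in 3T3 and 0.0951 and 0.101 CPM in Scid.adh (ratio of 3T3 to Scid.adh 2026, interval 560.5 to 16729). All 3 were near 0 in both Scid.adh libraries. Zyx, zyxin of focal adhesions, stood at 377 and 365 CPM in 3T3 and 0.0951 and 0.202 CPM in Scid.adh (ratio of 3T3 to Scid.adh 2528, interval 865 to 12258, exon overlap). Myh9, the main non-muscle myosin heavy chain, was on in both, at 2593 and 2556 CPM in 3T3 and 1482 and 1462 CPM in Scid.adh (log2 difference -0.81, SE 0.02). Tln2, talin 2, was higher in Scid.adh, at 109 and 107 CPM in 3T3 and 395 and 396 CPM in Scid.adh (log2 difference 1.87, SE 0.03).

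YAP and TEAD proteins read stiffness and cell shape in adherent cells, and their list had 21 of 22 tested members higher in 3T3. Yap1 stood at 188 and 193 CPM in 3T3 and 0.475 and 0.706 CPM in Scid.adh (log2 difference -8.32, SE 0.12, exon overlap). Its relative Wwtr1, which encodes TAZ, stood at 215 and 217 CPM in 3T3 and 0.0951 and 0.101 CPM in Scid.adh (ratio of 3T3 to Scid.adh 2209, interval 611 to 18240). The DNA-binding partner Tead1 stood at 260.3 and 262 CPM in 3T3 and 1.90 and 1.51 CPM in Scid.adh (log2 difference -7.24, SE 0.09). All 3 regulators were low in Scid.adh, and so were the target genes named here. The target gene Ccn1 stood at 1074 and 1068 CPM in 3T3 and 1.05 and 0.907 CPM in Scid.adh (log2 difference -10.08, SE 0.07). Ankrd1, another target, stood at 88.7 and 92.2 CPM in 3T3 and 0 CPM in both Scid.adh libraries (at least 616-fold higher in 3T3). Ptpn14, which restrains YAP, was the member higher in Scid.adh, at 216 and 216 CPM in 3T3 and 464 and 478 CPM in Scid.adh (log2 difference 1.12, SE 0.03, exon overlap).

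Leukocytes use their own set of actin regulators, and 30 of 35 tested were higher in Scid.adh, 14 of 39 on there and silent in 3T3. Rac2, a small GTPase of blood cells, stood at 0.0641 and 0.118 CPM in 3T3 and 339 and 336 CPM in Scid.adh (ratio of Scid.adh to 3T3 3654, interval 1250 to 17724). Lcp1, the leukocyte actin bundler L-plastin, stood at 0.385 and 0.118 CPM in 3T3 and 470.4 and 460.2 CPM in Scid.adh (log2 difference 10.83, SE 0.10, exon overlap). Was, an activator of actin branching, stood at 0.128 and 0.0591 CPM in 3T3 and 94.3 and 91.5 CPM in Scid.adh (ratio of Scid.adh to 3T3 1007, interval 344 to 4889). Lsp1, usually a lymphocyte actin-binding protein, was on in 3T3 and silent in Scid.adh, at 33.3 and 34.4 CPM in 3T3 and 0.190 and 0.101 CPM in Scid.adh (ratio of 3T3 to Scid.adh 230.5, interval 78.7 to 1120). Evl and Arhgdib were further members higher in 3T3, with log2 differences of -2.91 and -1.41. Exons of both overlap another gene.

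Pairs of related genes, 1 member typical of blood cells and 1 of other cells, often exchanged places between the lines. Of 38 pairs, 24 had the blood member higher in Scid.adh and the other higher in 3T3. In 22 the member with the larger RPKM differed between lines. The blood member was higher in Scid.adh in 31 pairs, beside 40.9% of all tested genes. The other member was higher in 3T3 in 29, beside 48.8%. The pairs were chosen with earlier results of these data known, so these counts describe them and test nothing. Fermt3, the kindlin of blood cells, made up 0.683% of the summed RPKM of Fermt3 and Fermt2 in 3T3 and 99.84% in Scid.adh. Exons of at least 1 member overlap another gene in 26 of the pairs. Lcp1 made up 0.0713% and 99.86% of its pair with Pls3. Hcls1, the cortactin of blood cells, made up 0.0631% and 99.96% of its pair with Cttn.

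An exchange was also seen among kinases, lamins and transcription factors. Lck made up 2.54% of its pair with Src in 3T3 and 99.87% in Scid.adh. Lmnb1, lamin B1, made up 20.6% of its pair with Lmna in 3T3 and 99.96% in Scid.adh, where Lmna, the A-type lamin of stiff tissues, stood at 0.0951 and 0.806 CPM against 644 and 654 CPM in 3T3. Gata3 made up 12.9% and 99.95% of its pair with Gata6. For Runx1 and Runx2 the shares in 3T3 were nearly even, with Runx1 at 49.6%, against 99.92% in Scid.adh.

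Some pairs did not exchange. In 6 pairs both members were higher in Scid.adh and in 4 both were higher in 3T3. Arhgdib, a GDP dissociation inhibitor typical of blood cells, was the member of the reverse pair, higher in 3T3 while Arhgdia was higher in Scid.adh. In 3 pairs a member did not pass the test or was not tested. Ccnd3, a D cyclin of lymphoid cells, made up 37.6% and 41.1% of its pair with Ccnd1. Tmsb4x, an actin-sequestering gene that most cells express, had 161 and 161 CPM in 3T3 and 0 CPM in both Scid.adh libraries. It has near-identical copies in the genome, so its count of 0 in Scid.adh is uncertain.

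**Figure D3:**
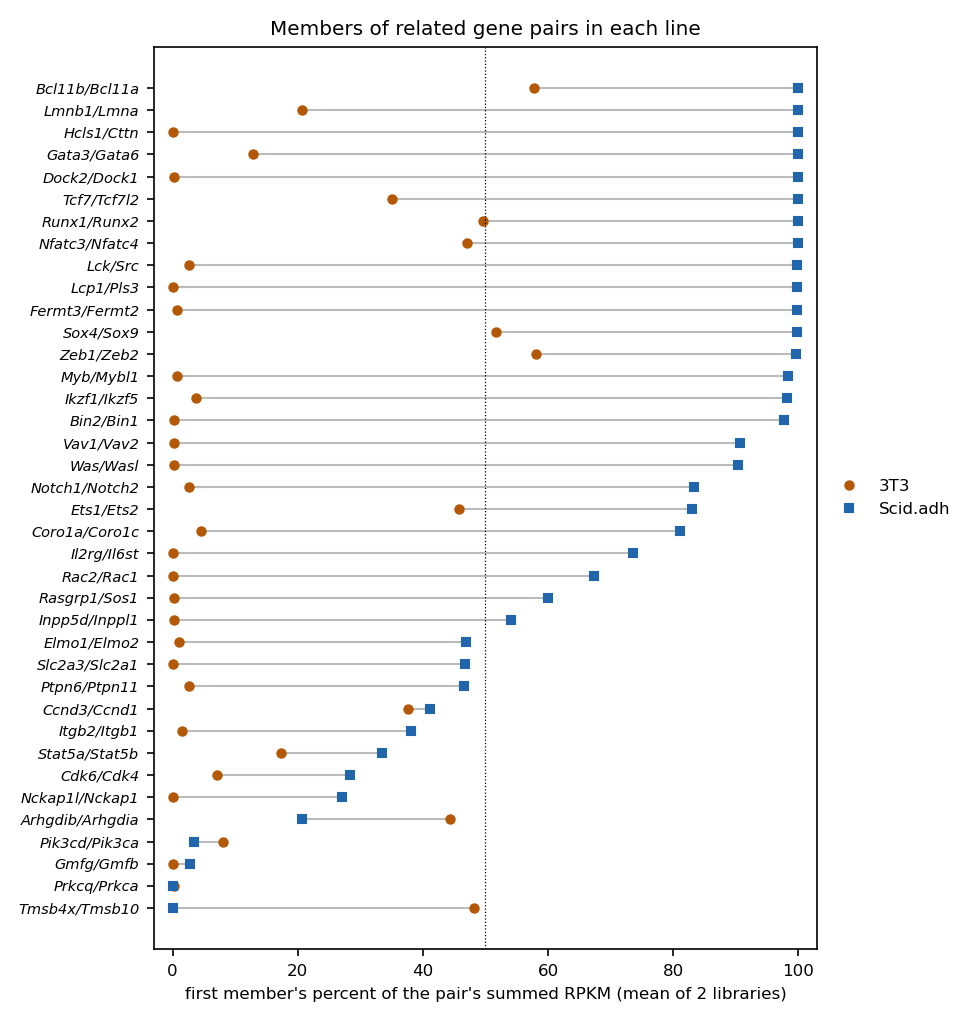
Share of the first-named member in the summed RPKM of each of 38 pairs of related genes, from the mean of 2 libraries, in 3T3 (orange circles) and Scid.adh (blue squares), with the dotted line at 50%. In 22 pairs the points lie on opposite sides of the line.

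Notch1, Notch3 and target genes of the pathway were higher in Scid.adh, and Notch2 and the ligand Jag1 in 3T3. Of 20 tested, 7 were higher in Scid.adh and 10 in 3T3, near the 40.9% and 48.8% of all tested genes. Among receptors, Notch1 stood at 10.3 and 11.2 CPM in 3T3 and 1541 and 1460 CPM in Scid.adh (log2 difference 7.13, SE 0.04, exon overlap). Notch3 stood at 1.86 and 2.19 CPM in 3T3 and 202 and 196 CPM in Scid.adh (log2 difference 6.61, SE 0.09, exon overlap). Notch2 was on in both at 298 and 302 CPM in 3T3 and 227 and 226 CPM in Scid.adh (log2 difference -0.40, SE 0.03, exon overlap). Ligands of these receptors are displayed by neighbouring cells. The ligand Jag1 stood at 33.2 and 33.8 CPM in 3T3 and 0.285 and 0.403 CPM in Scid.adh (log2 difference -6.57, SE 0.23). The targets had the order of Notch1 and Notch3. Dtx1 stood at 2.502 and 2.25 CPM in 3T3 (log2 difference 7.83, SE 0.06). Nrarp, a feedback inhibitor, stood at 0.770 and 0.650 CPM in 3T3 and 80.9 and 76.3 CPM in Scid.adh (log2 difference 6.78, SE 0.14, exon overlap). Rbpj, the DNA-binding partner of cleaved Notch, was on in both lines at 70.4 and 70.3 CPM in 3T3 and 48.2 and 46.2 CPM in Scid.adh (log2 difference -0.58, SE 0.06). Mfng, a glycosyltransferase that tunes Notch, stood at 0.257 and 0.0591 CPM in 3T3 and 37.8 and 39.7 CPM in Scid.adh (log2 difference 7.89, SE 0.24).

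Wnt genes held different receptors and nuclear factors in each line, with 11 of 44 tested higher in Scid.adh and 29 in 3T3. Tcf7l2, the TCF factor of most tissues, stood at 92.5 and 92.6 CPM in 3T3 and 3.23 and 3.53 CPM in Scid.adh (log2 difference -4.77, SE 0.11). Tcf7l1 stood at 90.6 and 93.7 CPM in 3T3 and 0.666 and 0.403 CPM in Scid.adh (log2 difference -7.40, SE 0.16, exon overlap), against the opposite order of Tcf7 and Lef1. Among frizzled receptors, Fzd1 stood at 76.7 and 78.4 CPM in 3T3 and 0.0951 and 0.101 CPM in Scid.adh (ratio of 3T3 to Scid.adh 793, interval 219 to 6548). Fzd10 stood at 0.193 and 0.414 CPM in 3T3 and 31.9 and 35.9 CPM in Scid.adh (log2 difference 6.74, SE 0.22). The central effector of the pathway was expressed in both lines. The beta-catenin gene Ctnnb1 was on in both lines at 694 and 682 CPM in 3T3 and 281 and 271 CPM in Scid.adh (log2 difference -1.32, SE 0.03, exon overlap). The feedback target Axin2 stood at 4.68 and 5.202 CPM in 3T3 and 24.6 and 31.4 CPM in Scid.adh (log2 difference 2.49, SE 0.14, exon overlap). Sfrp1, a secreted inhibitor, stood at 96.7 and 102 CPM in 3T3 and 0.190 and 0.202 CPM in Scid.adh (log2 difference -8.92, SE 0.18).

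Transforming growth factor beta and bone morphogenetic protein genes stood higher in 3T3 in 28 of 36 tested and in Scid.adh in 4. The type II receptor Tgfbr2 stood at 137 and 133 CPM in 3T3 and 0.0951 and 0 CPM in Scid.adh (ratio of 3T3 to Scid.adh 2762, interval 495 to 109099). The type I receptor Tgfbr1 was higher in Scid.adh at 57.5 and 56.5 CPM in 3T3 and 178 and 169 CPM in Scid.adh (log2 difference 1.60, SE 0.05). Among the carriers of the signal into the nucleus the lines also differed. The signal transducer Smad1 stood at 91.5 and 89.4 CPM in 3T3 and 0 and 0.101 CPM in Scid.adh (ratio of 3T3 to Scid.adh 1848, interval 331 to 73014). Smad4, the common partner, was on in both at 129 and 136 CPM in 3T3 and 83.1 and 87.6 CPM in Scid.adh (log2 difference -0.63, SE 0.05). Bmp7 was on in Scid.adh and silent in 3T3, at 0.193 and 0.177 CPM in 3T3 and 63.4 and 61.2 CPM in Scid.adh (log2 difference 8.33, SE 0.19). In the Hedgehog list 7 of 13 tested were higher in 3T3 and 3 in Scid.adh, beside 48.8% and 40.9% of all tested genes. The nuclear factor Gli3 stood at 157 and 160.1 CPM in 3T3 and 0.190 and 0.101 CPM in Scid.adh (ratio of 3T3 to Scid.adh 1081, interval 369.6 to 5242, exon overlap). The receptor Ptch1 stood at 20.8 and 21.9 CPM in 3T3 and 84.3 and 77.5 CPM in Scid.adh (log2 difference 1.92, SE 0.07).

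**Figure D4:**
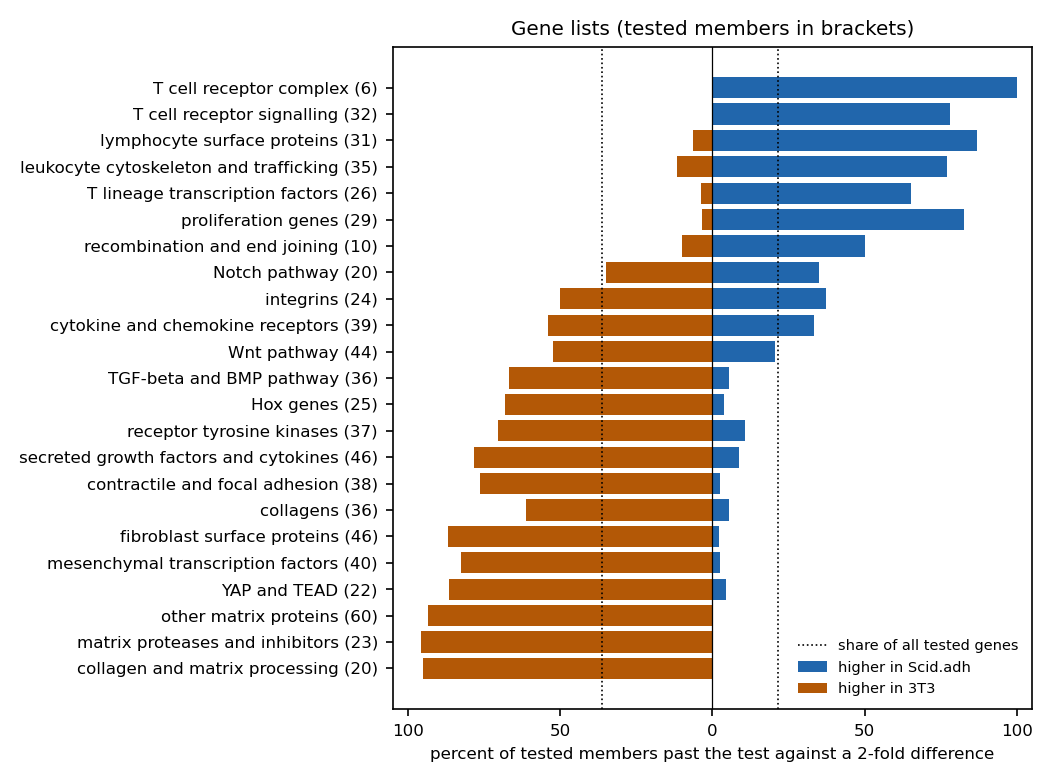
Percent of the tested members of 23 gene lists that passed the test against a 2-fold difference, higher in Scid.adh to the right (blue) and higher in 3T3 to the left (orange), with dotted lines at the shares of all tested genes (21.7% and 36.1%). Lymphoid lists lie to the right and matrix, surface and mesenchymal lists to the left, with Notch and integrin genes on both sides.

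Wide gaps were also seen at other named genes. On the Scid.adh side, Aldh1b1, a mitochondrial aldehyde dehydrogenase, stood at 0.128 and 0 CPM in 3T3 and 569 and 560.2 CPM in Scid.adh (ratio of Scid.adh to 3T3 9178, interval 2540 to 75798). Tnfrsf8, the activation receptor CD30, stood at 0.128 and 0 CPM in 3T3 and 238 and 241 CPM in Scid.adh (ratio of Scid.adh to 3T3 3893, interval 1077 to 32151). Dpp4, the surface peptidase CD26, stood at 0 and 0.0591 CPM in 3T3 and 178 and 166 CPM in Scid.adh (ratio of Scid.adh to 3T3 5594, interval 1003 to 220995, exon overlap). Dsc2, a desmosomal cadherin, stood at 0.385 and 0.355 CPM in 3T3 and 604 and 596 CPM in Scid.adh (log2 difference 10.63, SE 0.08). These genes were at 0.40 CPM or less in both 3T3 libraries.

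On the fibroblast side, Ptgs2, the inducible cyclooxygenase, had 553 and 563 CPM in 3T3 and 0 CPM in both Scid.adh libraries (at least 3802-fold higher in 3T3). The complement protein C3 stood at 1638 and 1644 CPM in 3T3 and 0 and 0.101 CPM in Scid.adh (ratio of 3T3 to Scid.adh 33539, interval 6019 to 1324734). Efemp1, a fibulin of elastic tissue, had 600.4 and 609 CPM in 3T3 and 0 CPM in both Scid.adh libraries (at least 4120-fold higher in 3T3). AY036118, annotated as a long noncoding RNA, had 2549 and 2493 CPM in 3T3 and 0 CPM in both Scid.adh libraries (at least 17166-fold higher in 3T3, exon overlap). Whether its 0 in Scid.adh reflects the line or the way its reads were counted was not tested.

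Genes that both lines need were on in both, but seldom at equal levels. All 20 housekeeping genes were on in both lines, 14 higher in Scid.adh and 6 in 3T3 (beside 40.9% and 48.8% of all tested genes), with a median log2 difference of 0.42. Against 2-fold, 8 and 1 of them passed, beside 21.7% and 36.1% of all tested genes. Proliferation genes were higher in Scid.adh in 26 of 29, with a median of 2.39. Mki67, a mark of cycling cells, stood at 373 and 386 CPM in 3T3 and 1694 and 1713 CPM in Scid.adh (log2 difference 2.17, SE 0.02). The replication helicase subunit Mcm5 stood at 33.8 and 31.6 CPM in 3T3 and 435 and 427 CPM in Scid.adh (log2 difference 3.72, SE 0.04). Ccnd2, a D cyclin, was higher in 3T3, at 602 and 598 CPM in 3T3 and 136 and 132 CPM in Scid.adh (log2 difference -2.16, SE 0.03, exon overlap). The inhibitor Cdkn1a, a p53 target, stood at 227 and 226 CPM in 3T3 and 8.65 and 7.46 CPM in Scid.adh (log2 difference -4.81, SE 0.07, exon overlap). Trp53 itself stood at 93.0 and 97.0 CPM in 3T3 and 187 and 183 CPM in Scid.adh (log2 difference 0.96, SE 0.04).

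Ribosomal protein genes were higher in Scid.adh in 74 of 81 tested, with a median log2 difference of 0.89. Past 2-fold were 25 of them, beside 21.7% of all tested genes. Many ribosomal protein genes, though, have near-identical copies in the genome whose reads a counter may split. All 13 mitochondrial protein genes were at 0 in both 3T3 libraries, although every fibroblast transcribes them. They summed to 7079 and 7142 CPM in Scid.adh, and 12 of them are among the 248 genes counted as on there and silent in 3T3. That zero was not read as silence, and 236 genes remain without them.

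The 4 libraries that played no part in choosing the on and silent genes kept most of the split. On their shared scale, Tcf7 stood at 15.3 and 15.6 CPM in normal and 989.8 and 1018 CPM in induced 3T3 cells, and at 1290 and 1290 CPM in empty-vector and 624 and 597 CPM in Scid.adh cells labelled knockout. Which bases of Tcf7 the knockout altered is not given in the sources used here, so a count over the whole gene does not check it. Of the 236 nuclear genes on in Scid.adh and silent in 3T3, 210 stayed under 0.5 CPM in both induced 3T3 libraries and 2 reached 5 CPM in both. These were Oas2, an antiviral synthetase, at 19.6 and 17.5 CPM, and Slfn8, a Schlafen family gene of leukocytes, at 6.29 and 5.66 CPM. Both were named after their values were seen. In the knockout Scid.adh libraries 215 of the 236 stayed at 5 CPM or more. Of the 1437 genes on in 3T3 and silent in Scid.adh, 1377 stayed at 5 CPM or more in both induced 3T3 libraries. In the knockout Scid.adh libraries 923 of them were under 0.5 CPM in both, 92 were at 1 CPM or more in both and 0 reached 5 CPM, the highest mean being 3.23 CPM for Arhgef17, a guanine nucleotide exchange factor.

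The genes of each class were chosen for low values in the baseline libraries of the silent line, which holds their sum there down by construction. Sums in the other libraries of that line are therefore set beside it without a comparison. The 1437 genes summed to 163 and 158 CPM in the empty-vector libraries and to 581 and 534 CPM in the knockout libraries, against 158546 and 157588 CPM in normal 3T3 cells. The 236 nuclear genes on in Scid.adh summed to 37.1 and 35.6 CPM in normal and 71.3 and 63.5 CPM in induced 3T3 cells, and to 18099 and 17868 CPM in the empty-vector libraries. Values in these 2 paragraphs are CPM scaled over all 8 libraries together.

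**Figure D5:**
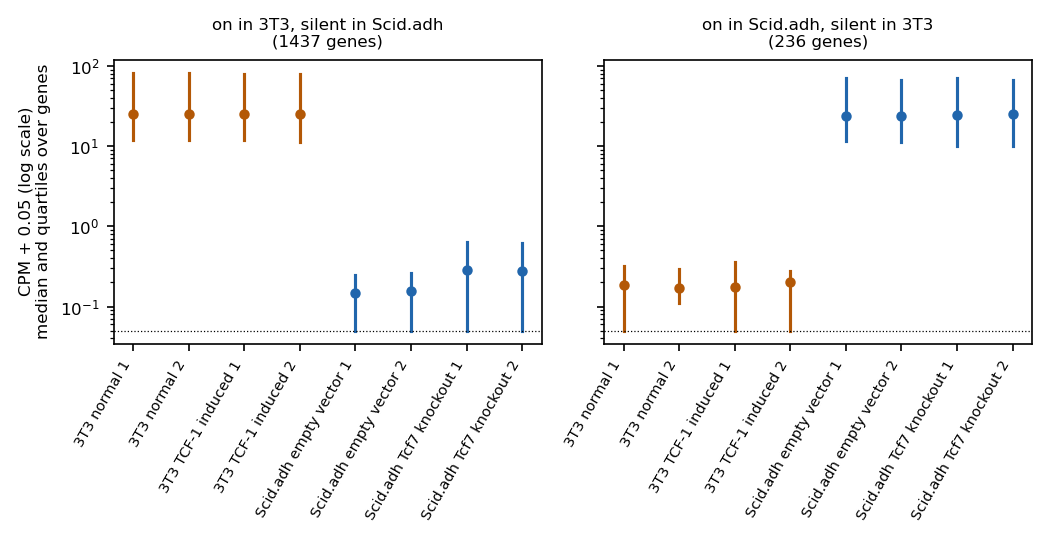
Level of the 1437 genes on in 3T3 and silent in Scid.adh (left) and of the 236 nuclear genes with the opposite pattern (right) in all 8 libraries, as CPM plus 0.05 on a log axis. Points are medians over genes and bars reach from the lower to the upper quartile, with the dotted line at 0 CPM.

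Among the 174 genes named here that passed the test, the largest adjusted p was 6.09e-04, for Zeb1 (edgeR, Benjamini-Hochberg over all tested genes). At 174 of these 174 genes both libraries of one line lay above both libraries of the other. Many were named for large differences, so this separation describes them and tests nothing. The same share over all tested genes was not counted. Of all tested genes, 89.7% passed in some direction, so the size of a difference says more here than its call.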

How the data were processed

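RNA was measured in 8 libraries of mouse cell lines, of which the 4 baseline libraries entered the tests. Per the labels, RNA came from RNeasy Plus Micro kits (RIN above 9) and libraries from the SMARTer Stranded Total RNA v2 Pico kit, read as 38 and 37 bases on a NextSeq 550. The submitters' processing notes name STAR 2.5.0a, HTSeq 0.6.1 and the builds GRCm38 and mm10. For each table, the program used, the gene annotation and the strand setting are not given in the labels or notes. The files of the lines differ in form, so different programs may have counted them, which was not tested. The deposited values are whole-number counts per Ensembl gene. Rows for unassigned reads stood only in the Scid.adh files and were left out. Groups were taken from the labels.

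Gene symbols, exon lengths and exon overlaps came from GENCODE M21, which lacked 39 of the 30731 shared identifiers. Exons of 8955 shared genes overlap another gene. Counts of the shared genes were scaled by TMM, filtered with filterByExpr (14982 genes kept) and tested with edgeR 4.0.16 (R 4.3.3), by the robust quasi-likelihood test with Benjamini-Hochberg adjustment over all tested genes. CPM is the count divided by the TMM-scaled total, times 1e+06, and RPKM divides it by exon length in kilobases. The SE of a log2 difference is its size divided by the square root of the F statistic. A fit against 2-fold used glmTreat. The edgeR gene test was tried on simulated counts, in which far fewer genes differed than between these lines. Totals of 9844704 to 17073212 counts set the precision of low values.

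The gene lists, their members and the pairs were chosen with earlier results of these data known. Named genes are the 4 markers, all members of lists of at most 16 genes, and of longer lists the 6 largest called differences per direction at 5 CPM or more, the most abundant member and uncalled members at 5 CPM or more. They also include every gene of the pairs and, over all genes, the 12 largest differences per direction at 100 CPM or more and the 12 most abundant genes silent in the other line. Some genes that the rule names, and 1 pair, are not reported here. Cxcl12, Ctnnb1, Gfi1, Hoxb4, Pdgfrb, Scx, Smad4, Tead1, Yap1, Oas2, Slfn8 and Arhgef17 fall outside that rule and were chosen after their values were seen. Alternatives were other scalings, gene filters, DESeq2 1.42.0, limma 3.58.1 with voom, a fit of all libraries, a replicate block, other on and silent thresholds, and leaving out each library. Replicate numbers are shared by label only. The differences between libraries 1 and 2 of the lines correlated at 0.0043, so the numbers were not taken as pairs.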

Additional observations from a re-analysis of the deposited data

How the results depend on the processing

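Without the genes whose exons overlap another gene, 8722 genes were tested, with 3673 genes higher in Scid.adh and 4117 genes higher in 3T3, 165 genes on in Scid.adh and silent in 3T3, and 716 genes on in 3T3 and silent in Scid.adh. Fewer genes entered, 21737 of the 30731 shared genes for the on and silent counts, which were 248 and 1437 over all shared genes. The count on in 3T3 fell further in proportion than the number of genes entered. Why it did so was not tested. Against 2-fold, 3258 genes were higher in Scid.adh. With silence set under 0.1 CPM, on at 5 CPM gave 84 genes for Scid.adh and 607 for 3T3, and on at 1 CPM gave 159 for Scid.adh. Asking for all 4 libraries of each line gave 891 genes on in 3T3 and silent in Scid.adh. Leaving out each library in turn gave 5778 to 6158 genes higher in Scid.adh and 6974 to 7564 higher in 3T3, with 256 to 274 and 1465 to 1666 genes on in one line and silent in the other. With a replicate block the counts were 5999 and 7190, and the replicate numbers are not known to pair libraries. Of 176 genes named and tested, 156 kept direction and call under each alternative that tested them, of which the one without exon-overlap genes left out 60. Most of the other 20 lost their call against 2-fold. Fyn, not past the test, reversed without exon-overlap genes (log2 difference -0.048, adjusted p 0.353) and passed with no filter on low counts (0.0363), with upper-quartile scaling (0.0211) and with library totals alone (0.0238), by edgeR's quasi-likelihood test. Of 80 counts of list members higher in one line, 52 moved over 1.5 times under at least one alternative, 31 without exon-overlap genes, 20 against 2-fold and 22 under another one. Of the 41 such counts of 5 or more, 6 moved under an alternative other than those 2. Foxo1 also passed with upper-quartile scaling (adjusted p 0.041) and with library totals alone (0.0446), both by edgeR's quasi-likelihood test. Scaling moved the median log2 difference by at most 0.04. Each scaling is taken from the counts themselves, so a shift shared by all genes between the lines would not show. Low levels are limited by depth, since 3 counts over both libraries of a line set the lowest bound. The cause of the changed calls was not tested.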
